A study of Mus musculus with 6 samples.

Results

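The genes that build, attach and finish N-linked glycans were compared between the pituitary glands of male mice labelled HFD and male mice labelled RD. The set was chosen by symbol alone and holds 95 of the 16736 rows of the deposited count table: 18 genes of the dolichol-linked precursor, 10 of the oligosaccharyltransferase, 11 glucosidases and mannosidases, 9 branching GlcNAc transferases, 8 fucosyltransferases, 11 beta4-galactosyl- and GalNAc transferases, 14 sialyltransferases and 14 carbohydrate sulfotransferases. The choice follows gene family names, so part of the set acts on other glycans than those of hormones, such as gangliosides, O-glycans, chondroitin and keratan sulfate. The mannosidases of the set also include lysosomal and cytosolic ones.

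Bulk RNA-seq of polyadenylated RNA was available for 3 HFD and 3 RD libraries, all from pituitaries collected after 4 h of feeding that followed a 16 h fast. The abbreviations HFD and RD are used as labelled, without a description of either diet, and no source used here gives strain, age, length of the diet or whether each library is a separate animal. The p-values therefore reflect only how far these libraries spread, and part of that spread may be technical. In bulk tissue, fewer cells of a type and less RNA per cell cannot be told apart. Column totals were 14185372 to 14384933 counts in the HFD libraries and 15702214 to 18111345 counts in the RD libraries. RD replicate 3 lay farthest from the others on the first principal component, at -36.2 against -9.68 and -18.5 for the other two RD libraries, with the HFD libraries at 19.1 to 24.4. The anterior pituitary markers were abundant in every library: growth hormone transcripts (GH1) stood at 36569 to 39506 CPM in HFD and 58896 to 71584 CPM in RD, where CPM is the library's count scaled by its total and its TMM factor.

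N-linked glycosylation begins at the ER membrane, where a branched sugar is assembled on the lipid dolichol. The oligosaccharyltransferase, a membrane complex beside the translocon, transfers that sugar as a block to asparagines of proteins entering the ER. Glucosidases and mannosidases trim it, which lets the lectin chaperones calnexin and calreticulin read the folding state, and Golgi enzymes then add branches and terminal sugars. In the pituitary the glycoprotein hormones thyrotropin, luteinizing hormone and follicle-stimulating hormone are all N-glycosylated. Many glycans of luteinizing hormone and thyrotropin end in a GalNAc that carries sulfate, while those of follicle-stimulating hormone mostly end in sialic acid, and the ending affects how fast a hormone leaves the blood.

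Of the 95 genes, 89 passed the filter on low counts and were tested. By edgeR's quasi-likelihood test with Benjamini-Hochberg adjustment over all 13873 tested rows, 13 of the 89 (14.6%) passed an adjusted p of 0.05 and are referred to as called, against 10.5% of all tested rows. In HFD, 9 of them were lower, 10.1% of the tested members against 4.61% of all rows, and 4 were higher, 4.49% against 5.87%. Scaled by library size alone, the split was 6 higher and 5 lower, while over all 13873 rows it was 1121 higher and 425 lower. HFD and RD libraries were fully separate for 31 of the 89 tested members (34.8%, against 32.5% of all rows), with every HFD library below every RD library for 20 genes (22.5%, against 15.6%) and above for 11 (12.4%, against 16.9%). The median log2(HFD/RD) was -0.018 over the members and -0.0025 over all rows. The called genes were subunits of the oligosaccharyltransferase and glucosidase II, all lower, and Golgi transferases, in both directions. Some of these transferases act on other glycans than N-linked ones. Of the 39 precursor, oligosaccharyltransferase, glucosidase and mannosidase genes 10.3% were called, all lower. Over all rows 10.5% were called and 4.61% were lower. Of the 50 tested Golgi transferases 18.0% were called. Without HFD replicate 1, 2 or 3 the number called was 3, 3 and 1, and without RD replicate 2 it was 6. Calls over all tested rows also fell in these fits, to 4.98%, 3.51%, 3.08% and 6.35%, from 10.5% in the main fit.

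**Figure D1:**
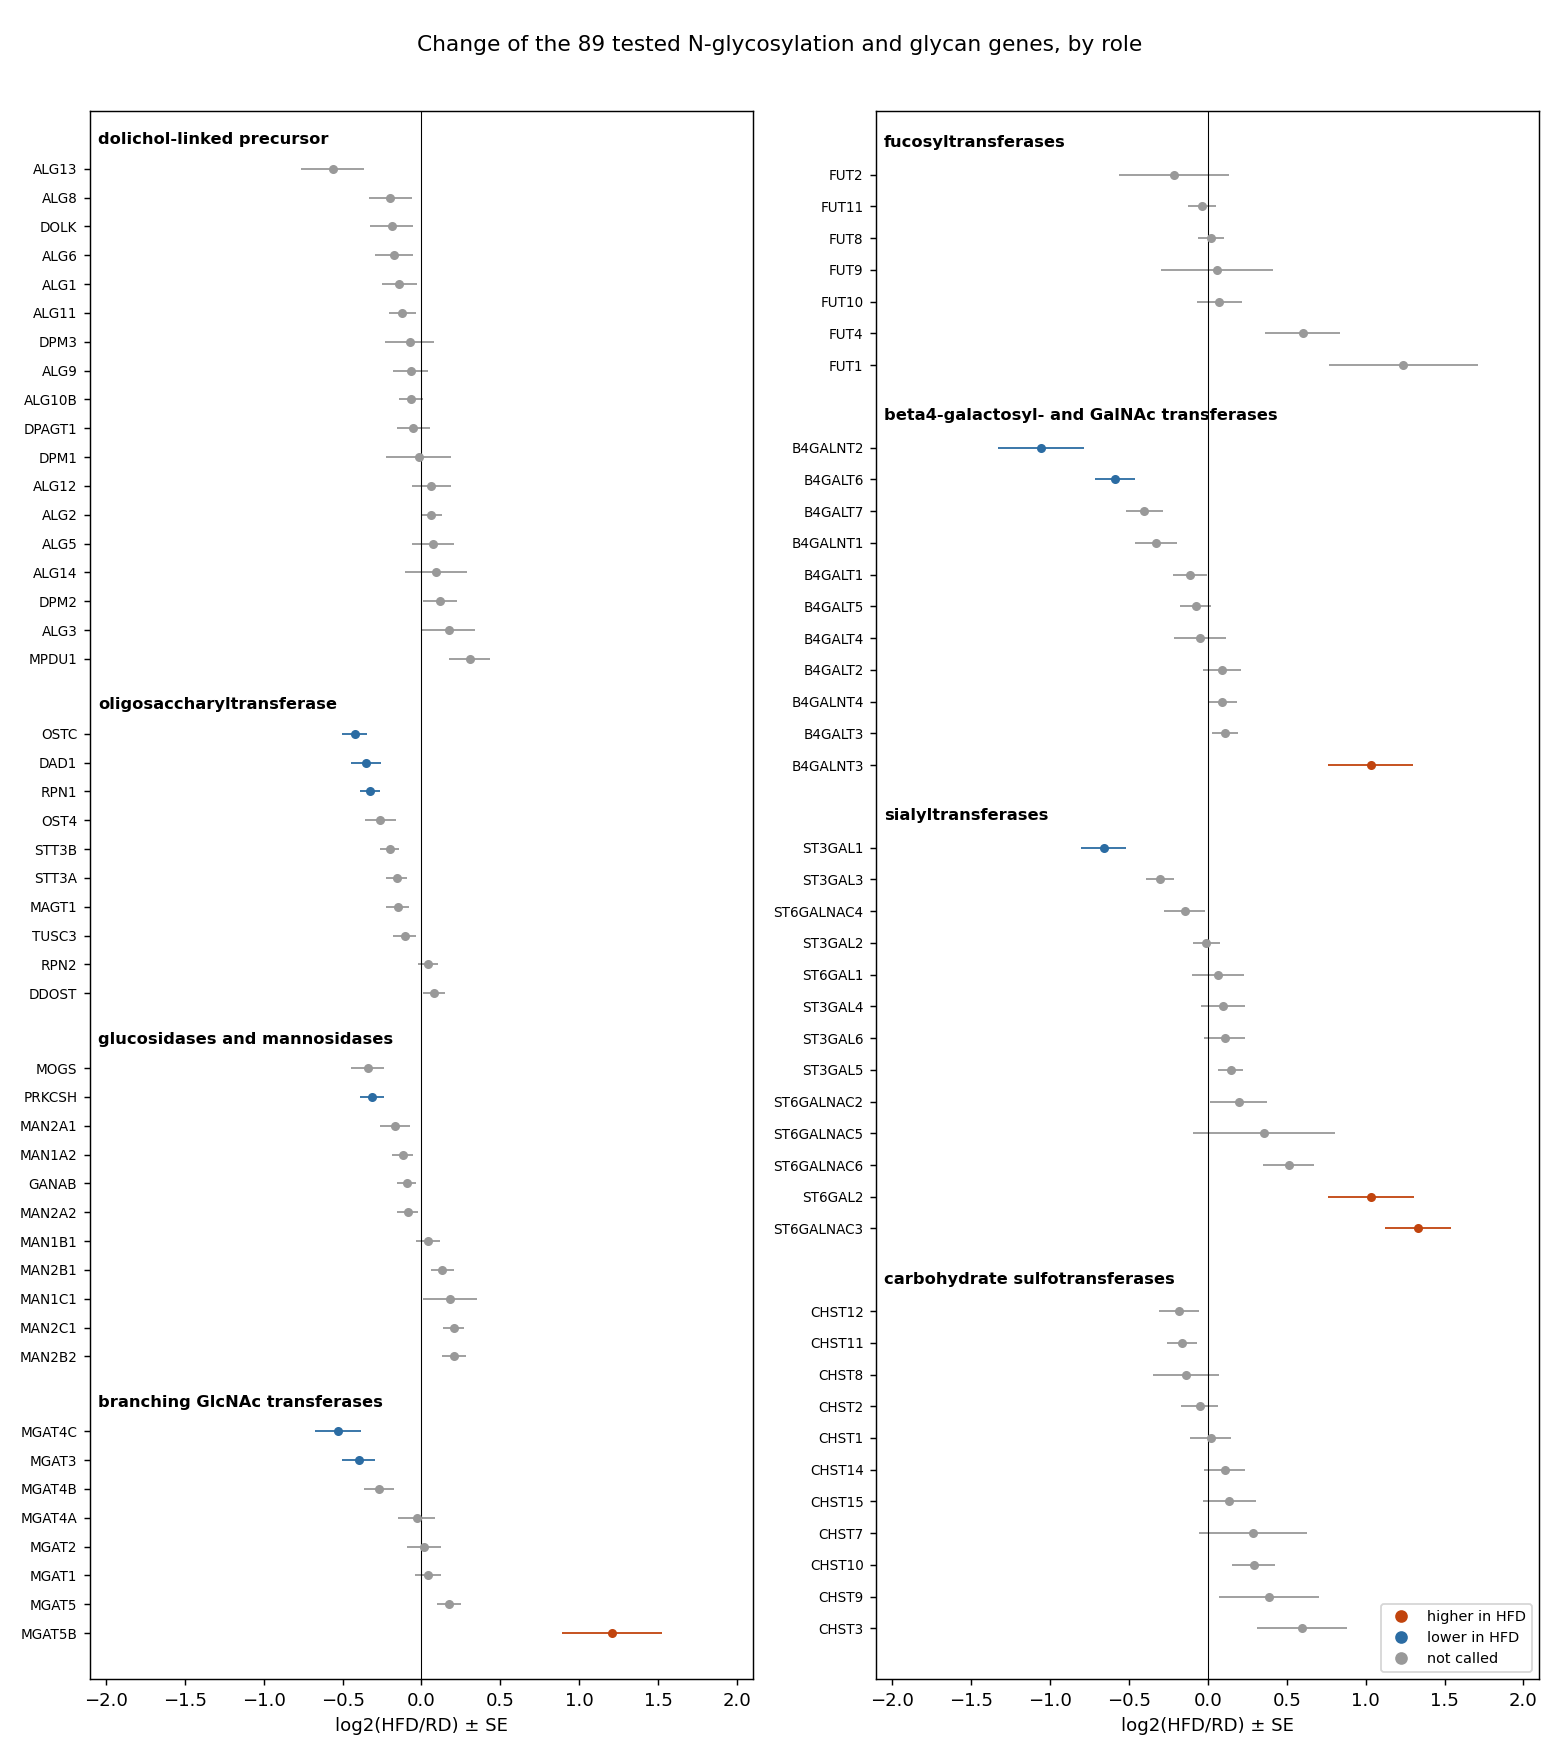
Log2(HFD/RD) with its standard error (x axis) for each of the 89 tested genes (rows), grouped by role, 3 HFD and 3 RD libraries. Points are coloured by the call of the edgeR test; the 18 precursor genes hold no call, 8 of 10 oligosaccharyltransferase points lie left of 0, and the 4 called rises are in Golgi transferases.

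Genes of the dolichol-linked precursor showed no called change in either direction, 0 of 18, against 10.5% of all tested rows. Of them, 2 had an unadjusted p under 0.05, as had 3677 of all 13873 tested rows. Limma-voom likewise called none, and DESeq2 called 1, ALG13. Their median log2(HFD/RD) was -0.059 and their summed level was 572 to 601 CPM in HFD and 574 to 621 CPM in RD. DPAGT1, which puts the first sugar phosphate on dolichol, was at 23.4, 21.6 and 23.9 CPM in HFD and 23.8, 22.4 and 25.2 CPM in RD. ALG1, the first mannosyltransferase of the pathway, was at 19.5, 23.7 and 20.0 CPM in HFD and 23.0, 22.4 and 24.2 CPM in RD, so both overlapped between the groups. The widest difference was that of ALG13, a subunit of the enzyme adding the second sugar, at 22.5, 23.7 and 18.6 CPM in HFD and 25.7, 26.4 and 43.4 CPM in RD (log2 -0.56 ± 0.20 SE, adjusted p = 0.10), where RD replicate 3 alone was far up, and DESeq2 called it lower (adjusted p = 0.032). ALG2, which adds the next mannoses, was among the highest of all members per exon length, at 58.1 CPM per kb in HFD and 55.6 CPM per kb in RD.

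Subunit genes of the oligosaccharyltransferase mostly lay lower in HFD. Of 10 genes, 3 were called lower (30.0%, against 4.61% of all tested rows) and none higher, and 8 of 10 had a negative log2 change. For 7 of 10 every HFD library lay below every RD library (70.0%, against 15.6% of all tested rows). With library size as the only scaling 2 were called lower and the median log2(HFD/RD) was -0.11, against 0.065 over all rows. In the main scaling the median was -0.18 and the summed level was 1460, 1520 and 1450 CPM in HFD against 1560, 1670 and 1680 CPM in RD. Per exon length this was also the most abundant group, with a median of 29.3 CPM per kb in HFD and 34.3 CPM per kb in RD, against 7.01 CPM per kb in HFD and 7.02 CPM per kb in RD over all tested rows with a length.

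OSTC, a subunit of the complexes built on the STT3A catalytic subunit, was at 65.4, 74.1 and 71.6 CPM in HFD and 88.0, 96.6 and 98.5 CPM in RD. The highest HFD library thus stayed under the lowest RD library, and the mean fell to 70.4 ± 4.47 CPM in HFD, against 94.4 ± 5.59 CPM in RD (SD, n = 3 each). The fitted log2 change was -0.42 ± 0.08 (SE, edgeR adjusted p = 0.012). The gene lies on chromosome 3 of mm10, minus strand, 130695912 to 130709444. RPN1 (ribophorin I, chromosome 6, plus strand, 88084482 to 88105304), a large structural subunit, was at 193, 211 and 202 CPM in HFD and 239, 259 and 261 CPM in RD. Its log2 change was -0.33 ± 0.07 (adjusted p = 0.014), a level of 0.798 of that in RD. DAD1, a small subunit first described as a defender against cell death, was at 80.8, 82.0 and 90.5 CPM in HFD and 97.97, 104 and 121 CPM in RD (log2 -0.35 ± 0.09, adjusted p = 0.041). For all 3 genes no HFD library reached the lowest RD library, and the difference between the means exceeded the SD of either group. That is no separate check, since the 3 were picked by the test on these same libraries. Without HFD replicate 3 none of the 3 was called (adjusted p = 0.056, 0.069 and 0.085 for OSTC, RPN1 and DAD1). RPN1 was also lost without HFD replicate 1 (0.061). The call of DAD1 held only without RD replicate 1, with adjusted p up to 0.15 in the other fits lacking a library, and it was lost with upper-quartile scaling (0.053) or library size alone (0.067).

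**Figure D2:**
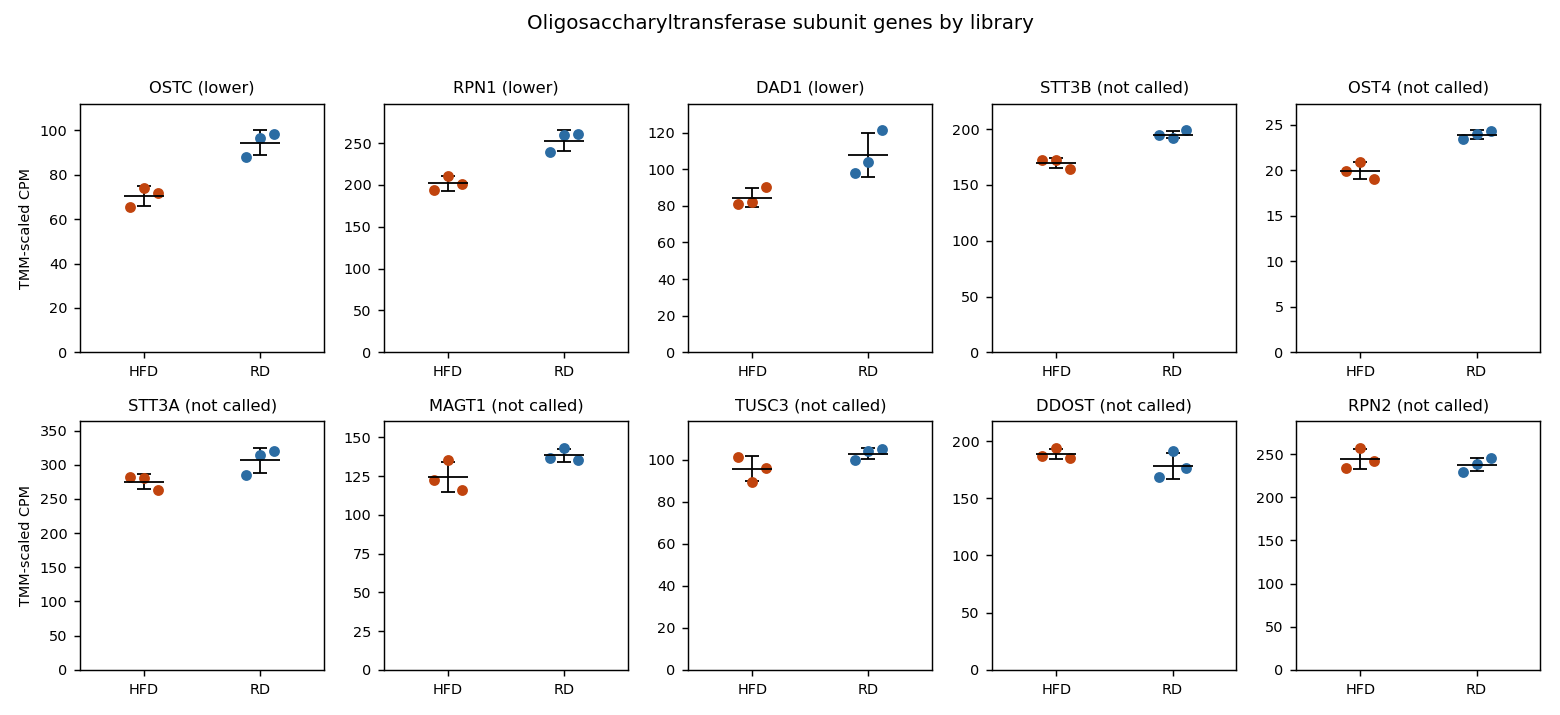
TMM-scaled CPM (y axis, from 0) of the 10 oligosaccharyltransferase subunit genes in each HFD and RD library (points), with mean and SD (bars), ordered by p-value. OSTC, RPN1 and DAD1 are called lower in HFD, while DDOST and RPN2 overlap between the groups.

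The catalytic subunits were not called. STT3A, which works on chains still entering the translocon, was at 282, 281 and 262 CPM in HFD and 286, 314 and 319 CPM in RD (log2 -0.15 ± 0.07, adjusted p = 0.17). STT3B, whose complexes reach sites that were skipped, was at 173, 172 and 164 CPM in HFD and 195, 192 and 199 CPM in RD (log2 -0.20 ± 0.06, adjusted p = 0.058). In both genes each HFD library was below each RD library, and DESeq2 called STT3B (adjusted p = 0.047). The ratio of STT3A to STT3B counts was 1.63, 1.63 and 1.60 in HFD and 1.47, 1.64 and 1.61 in RD, so the proportion of the 2 overlapped. MAGT1 and TUSC3, the alternative oxidoreductase subunits of STT3B complexes, had log2 changes of -0.15 ± 0.07 and -0.11 ± 0.07 and were not called (adjusted p = 0.22 and 0.39). OST4, the smallest subunit, was at 20.0, 20.9 and 19.1 CPM in HFD and 23.4, 24.0 and 24.4 CPM in RD (log2 -0.26 ± 0.10, adjusted p = 0.13). Against the rest, DDOST and RPN2, which form part of the core shared by both kinds of complex, leaned the other way without a call, at 0.080 ± 0.067 and 0.040 ± 0.063. DDOST was the most abundant of all members per exon length, at 89.02 CPM per kb in HFD and 84.2 CPM per kb in RD, and RPN2 stood at 55.2 CPM per kb in HFD and 53.7 CPM per kb in RD. KRTCAP2 and TMEM258, subunits outside the symbol rule, were at -0.07 ± 0.10 and -0.12 ± 0.16 with overlapping groups.

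Promoter sequences of RefSeq (build GRCm38.p6, 250 bases before to 50 after the start site) matched 75 of the 95 members by symbol and were searched on both strands for motifs of the unfolded protein response, since the title of the series names that response. The ER stress element ERSE, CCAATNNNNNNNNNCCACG, was present in 1 of the 75, ALG12, a mannosyltransferase of the precursor that was not called (log2 0.06 ± 0.12). It stood in 0.119% of all 32851 promoters, the promoter of the ER chaperone gene HSPA5 among them, and in 0.137% of the 27025 genes they belong to. ERSE-II, ATTGGNCCACG, and the UPRE core, TGACGTGG, matched none of the 75 (0.0444% and 0.714% of all these genes). The outer parts of ERSE are common on their own. CCAAT stood in 41.1% and CCACG in 35.5% of all these genes, and in 46.7% and 53.3% of the 75 members. They stood in 3 and 2 of the 5 called-lower members with a promoter. OSTC was not among the 75. A match or its absence describes these letters in this window only.

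The promoters of 3 genes called lower at the start of the pathway and of ALG12 are shown 5′ to 3′ on the strand of the gene, with each CCAAT and CCACG on either strand in capitals. They are RPN1 (chr6:88084223-88084522, plus strand), DAD1 (chr14:54253880-54254179, minus strand), PRKCSH (chr9:22002738-22003037, plus strand) and ALG12 (chr15:88819269-88819568, minus strand). The full element of ALG12 begins 220 bases before the start site. RPN1 and DAD1 hold both CCAAT and CCACG, but in neither does CCACG follow CCAAT on the same strand. PRKCSH holds neither motif.
RPN1: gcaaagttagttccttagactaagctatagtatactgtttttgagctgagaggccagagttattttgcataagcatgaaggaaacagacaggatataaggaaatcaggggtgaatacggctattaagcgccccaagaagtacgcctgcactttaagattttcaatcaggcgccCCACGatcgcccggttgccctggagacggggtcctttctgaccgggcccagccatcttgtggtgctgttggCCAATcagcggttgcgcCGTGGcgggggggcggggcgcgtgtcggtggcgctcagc
DAD1: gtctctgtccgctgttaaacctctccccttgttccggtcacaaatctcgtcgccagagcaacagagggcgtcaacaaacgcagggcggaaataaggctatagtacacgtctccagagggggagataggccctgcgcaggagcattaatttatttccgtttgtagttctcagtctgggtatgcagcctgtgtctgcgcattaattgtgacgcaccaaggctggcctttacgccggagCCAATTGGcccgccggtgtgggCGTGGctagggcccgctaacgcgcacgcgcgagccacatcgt
PRKCSH: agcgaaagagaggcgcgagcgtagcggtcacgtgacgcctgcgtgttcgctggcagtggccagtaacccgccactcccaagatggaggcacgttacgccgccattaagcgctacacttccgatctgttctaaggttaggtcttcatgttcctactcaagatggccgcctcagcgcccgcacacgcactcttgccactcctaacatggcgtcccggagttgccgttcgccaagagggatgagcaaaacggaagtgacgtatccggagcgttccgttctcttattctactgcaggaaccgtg
ALG12: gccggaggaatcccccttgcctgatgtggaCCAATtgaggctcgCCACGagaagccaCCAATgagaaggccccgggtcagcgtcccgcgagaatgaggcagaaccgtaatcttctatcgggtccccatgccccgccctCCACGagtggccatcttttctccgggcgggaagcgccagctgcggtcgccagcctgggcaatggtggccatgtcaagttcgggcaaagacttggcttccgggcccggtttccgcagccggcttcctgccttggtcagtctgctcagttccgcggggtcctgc

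Of the 11 glucosidases and mannosidases, 1 was called lower and none higher (9.09% called, against 10.5% of all tested rows). PRKCSH, the beta subunit of glucosidase II, was at 103, 91.2 and 103 CPM in HFD and 115, 127 and 127 CPM in RD, with no overlap (log2 -0.31 ± 0.08, adjusted p = 0.032). Its call was lost without any one HFD library or without RD replicate 2 (adjusted p up to 0.13) and with library size as the only scaling (0.061). GANAB, the catalytic alpha subunit of the same enzyme, was at 214, 222 and 225 CPM in HFD and 230, 229 and 246 CPM in RD, a log2 change of -0.09 ± 0.06 that was not called (adjusted p = 0.37). MOGS, glucosidase I, which removes the outermost glucose, was at 43.1, 45.2 and 38.6 CPM in HFD and 48.3, 52.9 and 59.6 CPM in RD (log2 -0.34 ± 0.10, adjusted p = 0.062), and passed by DESeq2 (0.034) and without RD replicate 1 (0.038). The mannosidase genes MAN1A2, MAN2A1 and MAN2A2, which act on N-glycans in the Golgi, had log2 changes of -0.12 ± 0.07, -0.17 ± 0.09 and -0.09 ± 0.07 with overlapping groups and no call. MAN1C1, also a Golgi mannosidase, was at 0.18 ± 0.17 and MAN1B1, which trims mannose early, at 0.04 ± 0.08, both overlapping and not called. The lysosomal MAN2B1 and MAN2B2 and the cytosolic MAN2C1 had log2 changes of 0.13 ± 0.07, 0.21 ± 0.08 and 0.21 ± 0.07, with every HFD library above every RD library and no call (adjusted p = 0.28, 0.11 and 0.082). With library size alone as the scaling, MAN2B2 and MAN2C1 were called higher (0.044 and 0.036).

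Among 8 tested branching transferases, 2 were called lower and 1 higher (37.5% called, against 10.5% of all tested rows). MGAT3, which adds the bisecting GlcNAc, was at 27.4, 24.0 and 29.1 CPM in HFD and 34.6, 33.5 and 38.0 CPM in RD (log2 -0.40 ± 0.10, adjusted p = 0.040). MGAT4C, a homologue of the transferases of the beta-1,4 branch, was at 10.3, 8.89 and 10.1 CPM in HFD and 12.3, 15.8 and 14.2 CPM in RD (log2 -0.53 ± 0.15, adjusted p = 0.047). MGAT5B, known from brain where it branches O-mannosyl glycans, was higher at 7.42, 6.99 and 6.35 CPM in HFD, against 4.59, 2.80 and 1.62 CPM in RD (log2 1.21 ± 0.32, adjusted p = 0.041), with the RD libraries well apart from each other. These groups did not overlap, yet the calls are near the threshold. That of MGAT3 was lost in each of the 6 fits lacking a library (adjusted p up to 0.15), that of MGAT4C in 5 of them (up to 0.17, RD replicate 1 being the exception) and that of MGAT5B in 5 (up to 0.12, again with RD replicate 1 as the exception). With upper-quartile scaling or library size alone MGAT3 (adjusted p = 0.052 and 0.070) and MGAT4C (0.059 and 0.072) were not called, nor was MGAT4C by limma-voom (0.057) or with the trend on GC content removed (0.093).

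The transferases that make the common complex glycans were not called. MGAT1, which opens the complex pathway, was at 71.0, 65.4 and 75.1 CPM in HFD and 65.4, 69.1 and 71.1 CPM in RD, and MGAT2, which starts the second antenna, had a log2 change of 0.015 ± 0.108. MGAT5, the enzyme of the beta-1,6 branch, was at 250, 292 and 270 CPM in HFD and 254, 242 and 223 CPM in RD (log2 0.17 ± 0.08, adjusted p = 0.18). MGAT4A and MGAT4B, of the beta-1,4 branch, had log2 changes of -0.03 ± 0.12 and -0.27 ± 0.09 (adjusted p = 0.90 and 0.10). The ratio of MGAT5B to MGAT5 counts was 0.030, 0.024 and 0.024 in HFD and 0.018, 0.012 and 0.0072 in RD. MGAT4D was listed at 0 in every library. No fucosyltransferase was called among 7 tested, against 10.5% of all tested rows, and DESeq2 and limma-voom called none. An unadjusted p under 0.05 was found for 2 of the 7, and for 3677 of all 13873 tested rows. FUT8, the core fucosyltransferase, was at 57.1, 58.0 and 62.6 CPM in HFD and 58.5, 54.8 and 62.1 CPM in RD, with a log2 change of 0.02 ± 0.08. FUT1, which makes the H antigen, had a log2 change of 1.24 ± 0.47 with overlapping groups, at 1.60, 3.33 and 4.73 CPM in HFD and 2.08, 0.651 and 1.33 CPM in RD (adjusted p = 0.13). FUT9, a Lewis X enzyme, was among the lowest tested members per exon length, at 0.395 CPM per kb in HFD and 0.380 CPM per kb in RD. Among the lowest were also ST6GALNAC5, a ganglioside sialyltransferase (0.186 CPM per kb in HFD and 0.143 CPM per kb in RD), and CHST3 (0.502 CPM per kb in HFD and 0.331 CPM per kb in RD).

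Transferases of terminal galactose and GalNAc held 1 called rise and 2 called falls among 11 (27.3% called, against 10.5% of all tested rows). B4GALNT3 (chromosome 6, minus strand, 120203073 to 120294559) transfers the GalNAc to which sulfate can be added on hormone glycans. It was at 111, 115 and 101 CPM in HFD and 45.1, 82.9 and 31.8 CPM in RD. Every HFD library was above every RD library, the RD libraries were spread widely and RD replicate 2 came closest to HFD. The mean was 109 ± 7.01 CPM in HFD and 53.2 ± 26.5 CPM in RD (SD, n = 3 each), 2.05-fold, with a log2 change of 1.03 ± 0.27 (adjusted p = 0.039). DESeq2 did not call it (adjusted p = 0.087), and the edgeR call was lost without any one HFD library or without RD replicate 1 (adjusted p at most 0.13). The log2 change was 0.92, 1.496 and 0.76 without RD replicate 1, 2 and 3. An opposite-strand gene shares 4.47% of its exon bases, and no source used here says whether counting used strand.

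The other transferases of this ending were not called. B4GALNT4, the second GalNAc transferase of this kind, was at 30.0, 29.1 and 31.9 CPM in HFD and 29.4, 28.1 and 27.8 CPM in RD (log2 0.09 ± 0.09, adjusted p = 0.57). The ratio of B4GALNT3 to B4GALNT4 counts was 3.69, 3.94 and 3.17 in HFD and 1.53, 2.95 and 1.14 in RD. Per exon length, B4GALNT3 stood at 28.8 CPM per kb in HFD and 14.1 CPM per kb in RD, and B4GALNT4 at 7.87 CPM per kb in HFD and 7.38 CPM per kb in RD. CHST8, the GalNAc-4-sulfotransferase known from the pituitary, was at 23.9, 45.9 and 38.4 CPM in HFD and 47.2, 34.2 and 37.6 CPM in RD, so the groups overlapped and HFD replicate 1 was the lowest (log2 -0.14 ± 0.21, adjusted p = 0.72; 0.09 without HFD replicate 1). CHST9, its paralogue, was far lower per exon length, at 0.930 CPM per kb in HFD and 0.712 CPM per kb in RD, while CHST8 stood at 6.04 CPM per kb in HFD and 6.65 CPM per kb in RD. SLC35B2, the Golgi transporter of the sulfate donor PAPS, was higher at 26.6, 25.9 and 31.6 CPM in HFD, against 22.1, 17.1 and 20.0 CPM in RD (log2 0.50 ± 0.13, adjusted p = 0.036). The hormone substrates themselves split. Thyrotropin beta (TSHB) was at 286, 294 and 280 CPM in HFD and 94.3, 161 and 162 CPM in RD (log2 1.04 ± 0.17), and the shared alpha subunit CGA was also called higher (log2 0.37 ± 0.07). The beta subunits LHB (-0.36 ± 0.10) and FSHB (-0.39 ± 0.07) were called lower.

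**Figure D3:**
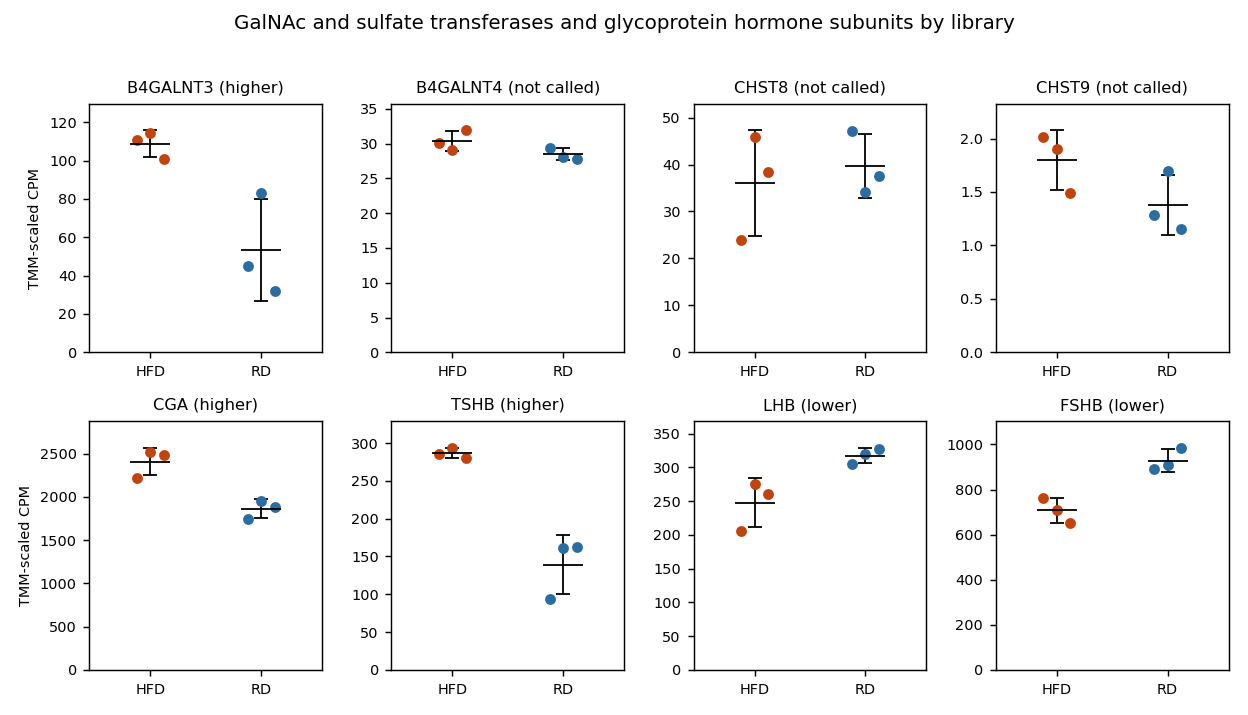
TMM-scaled CPM (y axis, from 0) in each HFD and RD library (points), with mean and SD (bars), of 2 GalNAc transferases, 2 GalNAc-4-sulfotransferases and the 4 glycoprotein hormone subunits. B4GALNT3, CGA and TSHB lie higher in HFD, LHB and FSHB lower, and B4GALNT4, CHST8 and CHST9 are not called.

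Some markers of the hormone cells also differed between the groups. Over all tested rows, 5.87% were called higher and 4.61% lower. Of 6 thyrotroph markers 3 were called higher (TSHB, TRHR and GATA2), and their summed level was 591 to 632 CPM in HFD and 339 to 418 CPM in RD. Among 6 gonadotroph markers 2 were called higher (FOXP2 and NR5A1) and 3 lower (GNRHR, FSHB and LHB), with a sum of 1200 to 1260 CPM in HFD and 1470 to 1630 CPM in RD. Somatotroph markers were lower in sum, 39800 to 43000 CPM in HFD and 62400 to 75600 CPM in RD, with 3 of 7 called lower (GH1, POU1F1 and PAPPA2) and 1 higher (IGFBP5). Of 5 lactotroph markers ANGPT1 was called higher and PRL lower, and the other 3 were not called. CRHR1 was the only corticotroph and melanotroph marker called, higher, of 7, and the other 6 overlapped between the groups. The sum of these 7 was 6150, 14300 and 11800 CPM in HFD and 10000, 5930 and 5940 CPM in RD. HFD replicate 1, in which CHST8 was lowest, was thus the lowest HFD library for this sum, with POMC at 5789 CPM against 13670 and 11150 CPM in the other HFD libraries. GH1, PRL, POMC, TSHB, LHB, FSHB and CGA were above 0 in every library. The part of cell composition in the changes of glycan genes was not tested.

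The 2 falls in this family were those of B4GALT6 and B4GALNT2. B4GALT6, which makes lactosylceramide, the root of gangliosides, was at 145, 143 and 131 CPM in HFD and 173, 198 and 258 CPM in RD (log2 -0.59 ± 0.13, adjusted p = 0.019), and was called in every fit lacking an RD library but in none lacking an HFD library (adjusted p up to 0.098). B4GALNT2, the transferase of the Sda antigen, was scarce, at 2.15, 1.29 and 2.03 CPM in HFD and 4.22, 3.71 and 3.47 CPM in RD (log2 -1.06 ± 0.27, adjusted p = 0.038). Of the fits lacking a library, it was called only in that without RD replicate 3, with adjusted p up to 0.13 in the others, and an antisense gene shares 15.3% of its exon bases. B4GALT1, the main enzyme adding galactose to N-glycans, was at 86.1, 85.2 and 74.4 CPM in HFD and 79.1, 84.6 and 102 CPM in RD (log2 -0.11 ± 0.11). B4GALT7, which starts the linker of proteoglycans, was at 17.8, 14.9 and 16.2 CPM in HFD and 20.4, 21.2 and 23.2 CPM in RD. It missed the threshold (log2 -0.40 ± 0.12, adjusted p = 0.057) and passed by DESeq2 (0.046) and with the GC content trend removed (0.043).

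**Figure D4:**
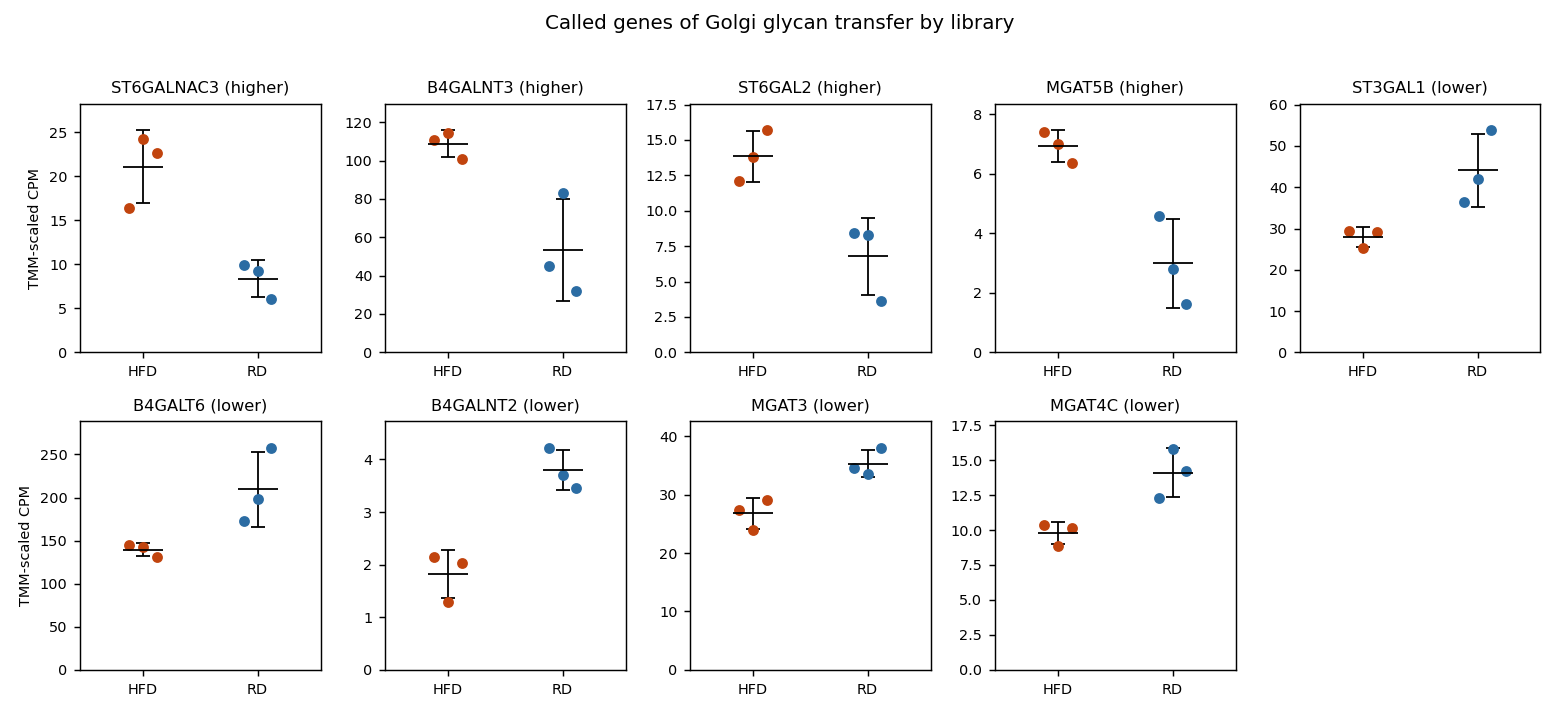
TMM-scaled CPM (y axis, from 0) of the 9 called genes of Golgi glycan transfer in each HFD and RD library (points), with mean and SD (bars). In the 4 genes called higher and the 5 called lower, the HFD and RD libraries do not overlap.

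Sialyltransferases held 2 called rises and 1 called fall among 13 tested (23.1% called, against 10.5% of all tested rows). ST6GALNAC3 (chromosome 3, minus strand, 153198266 to 153725174), which adds sialic acid to the GalNAc of sialylated O-glycans and gangliosides, was at 16.4, 24.2 and 22.6 CPM in HFD and 9.91, 9.18 and 6.01 CPM in RD. The lowest HFD library was above the highest RD library, and the difference was 2.52-fold (log2 1.33 ± 0.21, adjusted p = 0.0055). Of the 13 calls this was the only one held in each of 19 alternative settings, among them each fit lacking a library (adjusted p up to 0.036). ST6GAL2, one of the pair of enzymes that put alpha-2,6 sialic acid on galactose, was at 12.1, 13.8 and 15.7 CPM in HFD and 8.44, 8.27 and 3.64 CPM in RD (log2 1.03 ± 0.27, adjusted p = 0.041). Its call was lost without any one HFD library or without RD replicate 2 (up to 0.16). The other of the pair, ST6GAL1, was far more abundant per exon length, at 20.9 CPM per kb in HFD and 20.0 CPM per kb in RD, while ST6GAL2 stood at 1.88 CPM per kb in HFD and 0.920 CPM per kb in RD. ST6GAL1 overlapped between the groups, at 108, 96.5 and 104 CPM in HFD and 111, 115 and 68.9 CPM in RD, and RD replicate 3 was the lowest.

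ST3GAL1, which caps core O-glycans with sialic acid, was at 29.4, 25.2 and 29.2 CPM in HFD and 36.4, 42.0 and 53.8 CPM in RD, with no overlap (log2 -0.66 ± 0.14, adjusted p = 0.019). Without any one HFD library it was not called (up to 0.088). Of the enzymes that put alpha-2,3 sialic acid on N-glycans, ST3GAL3 was at 28.6, 28.0 and 25.7 CPM in HFD and 34.4, 33.9 and 33.1 CPM in RD. It missed the threshold (log2 -0.30 ± 0.09, adjusted p = 0.060) and passed with the GC content trend removed (0.046). ST3GAL4 and ST3GAL6 had log2 changes of 0.09 ± 0.14 and 0.11 ± 0.13 with overlapping groups. ST6GALNAC6, a ganglioside sialyltransferase, was at 20.2, 29.4 and 29.0 CPM in HFD and 17.98, 21.0 and 16.2 CPM in RD, where HFD replicate 1 overlapped with RD (log2 0.51 ± 0.16, adjusted p = 0.074). It passed by DESeq2 (0.033) and without HFD replicate 1 (0.032).

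Among markers of oligodendrocytes and Schwann cells, MAG was called higher in HFD (log2 2.08 ± 0.44, edgeR adjusted p = 0.017). The sum of these markers was 74.5, 82.3 and 187 CPM in HFD and 77.5, 64.4 and 64.1 CPM in RD, so that HFD replicate 3 alone was far up, while ST6GALNAC3, ST6GAL2 and MGAT5B were high in all 3 HFD libraries. The marker MOG was at 0 in RD replicates 1 and 2. Markers of posterior lobe (99.1 to 217 CPM in HFD, 175 to 279 CPM in RD), endothelium (385 to 420 CPM in HFD, 372 to 394 CPM in RD) and myeloid cells (74.7 to 89.5 CPM in HFD, 70.5 to 88.2 CPM in RD) held no gene called by edgeR, DESeq2 or limma-voom. Of these, 2 of 8 endothelial markers and none of the others had an unadjusted p under 0.05, as had 3677 of all 13873 tested rows. EdgeR called 10.5% of all tested rows. Of 8 mural and fibroblast markers 1 was called, COL1A2, lower (log2 -0.69 ± 0.10), while COL1A1 (0.16 ± 0.11), COL3A1 (-0.04 ± 0.14) and PDGFRB (0.18 ± 0.09) were among the 7 not called. The part of these cells in the results was not tested.

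Carbohydrate sulfotransferases held no call among 11 tested, against 10.5% of all tested rows. None of the 11 had an unadjusted p under 0.05, against 3677 of all 13873 tested rows. DESeq2 and limma-voom called none of these sulfotransferases either. Their log2 changes ran from -0.18 to 0.59 and their summed level was 233 to 251 CPM in HFD and 234 to 254 CPM in RD. CHST3, a chondroitin sulfotransferase with the highest of these changes, was at 3.88, 3.26 and 2.63 CPM in HFD and 1.65, 2.08 and 2.71 CPM in RD, and overlapped (log2 0.59 ± 0.29, adjusted p = 0.22). A further 3 members of the family, CHST4, CHST5 and CHST13, did not pass the filter, with at most 8 counts in any library, and the same held for FUT7 and ST6GALNAC1 with at most 4 counts. At the depth of these libraries 3 counts correspond to 0.209 to 0.212 CPM in HFD and 0.166 to 0.191 CPM in RD.

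**Figure D5:**
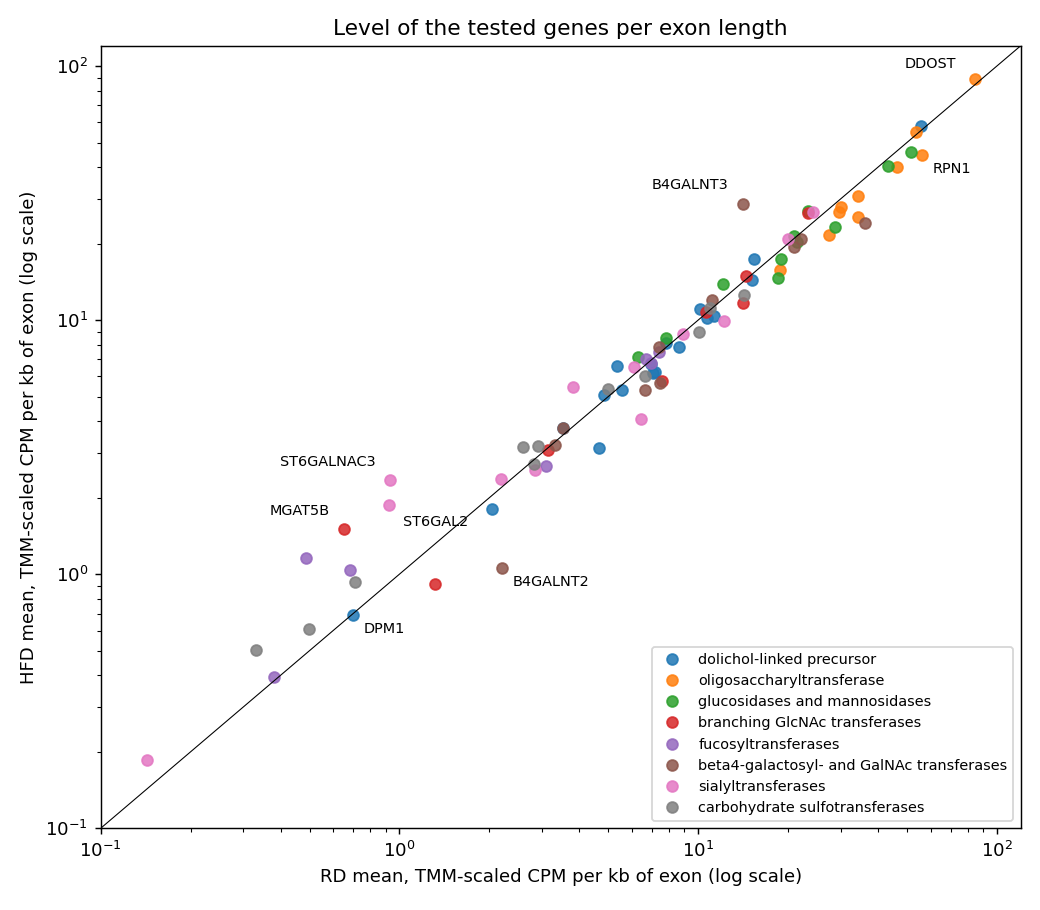
Mean TMM-scaled CPM per kb of exon in HFD (y axis, log scale) against RD (x axis, log scale) for the 88 tested members with a known exon length, coloured by role, with the line of equal levels. Most oligosaccharyltransferase genes lie toward the upper right, 8 of 10 under the line, and B4GALNT3, ST6GALNAC3, ST6GAL2 and MGAT5B lie well above it.

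Among 24 genes of nucleotide sugar and sulfate donor synthesis, 2 were called lower and 1 higher (12.5%, against 10.5% of all tested rows). GNE, the entry enzyme of sialic acid synthesis, was at 59.2, 56.7 and 58.2 CPM in HFD and 69.8, 88.3 and 76.6 CPM in RD (log2 -0.43 ± 0.09, adjusted p = 0.020). GFPT1, the entry enzyme of the hexosamine pathway, had a log2 change of -0.23 ± 0.06 (adjusted p = 0.046), and GMPPA, a subunit that regulates synthesis of the mannose donor, of 0.32 ± 0.07 (adjusted p = 0.021). Of 13 Golgi and ER nucleotide sugar transporters, SLC35B2 alone was called. None of 6 genes of dolichol supply was called by edgeR, DESeq2 or limma-voom, although 3 had an unadjusted p under 0.05, among them DHDDS (-0.21 ± 0.07) and NUS1 (-0.28 ± 0.09), the subunits of the enzyme that builds the lipid. Of all 13873 tested rows, 3677 had an unadjusted p under 0.05. In the calnexin cycle and glycan-directed degradation, 0 of 20 genes were called and 10 had an unadjusted p under 0.05. Limma-voom called none and DESeq2 called 2 lower, EDEM1 and MLEC. Every HFD library lay below every RD library for 8 of these 20, against 15.6% of all tested rows. Every HFD library lay above for 3 of the 20, against 16.9% of all tested rows. The 8 below included UGGT1 (-0.19 ± 0.06, edgeR adjusted p = 0.081), the glucosyltransferase that senses misfolding. EDEM1 (-0.32 ± 0.10, edgeR adjusted p = 0.067), which directs glycoproteins to degradation, was also among the 8.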

How the data were processed

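The authors deposited whole-number read counts per gene symbol for 6 libraries, with no normalization. Oligo-dT selection of polyadenylated RNA is stated per the labels' protocols. The build is mm10, per the submitters' processing notes. Aligner, counter, versions, annotation and use of strand: not given in the sources used here. Among counts of 1 to 10, 64.0% to 67.0% were even (48.9% to 50.4% above 200), so halved counts were tried and no counting intervals are given.

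Counts were tested in R 4.3.3 with edgeR 4.0.16 (TMM, minimum count 10, minimum total 15, quasi-likelihood test with an intercept and diet, two-sided, Benjamini-Hochberg over all rows, threshold 0.05), a procedure also tested on simulated data. Standard errors were derived as |log2 change| over the root of the F statistic. Exon lengths are unions of exons of GENCODE M21, known for 94 of the 95 members, so isoform use can shift a level per kb. The other tools were limma 3.58.1, DESeq2 1.42.0 and, for sums and figures, Python 3.11.15.

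Every called member was named, with members of fixed pathway steps (MAN1A1 has no row), the 5 uncalled ones of smallest p, the 3 highest and 3 lowest per exon length, and up to 4 called genes of each other list. Further members (ALG13, ALG12, OST4, FUT1, MAN1B1, MAN1C1, MAN2B1, MAN2B2, MAN2C1) and uncalled genes of other lists (DHDDS, NUS1, UGGT1, EDEM1, MLEC, KRTCAP2, TMEM258, COL1A1, COL3A1, PDGFRB) were chosen after their values were seen. The members and lists were chosen with earlier results of these data known. No list was given a set test. Results for some marker genes are not reported here. Alternatives were other scalings, filters, tests and thresholds, a replicate block, halved counts, a loess correction for GC content (span 0.4, 96.5% of tested rows) and each library left out.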

Additional observations from a re-analysis of the deposited data

How the results depend on the processing

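Of the members, 4 were called higher and 9 lower, 13 in all. At a threshold of 0.01 these numbers were 1, 0 and 1, with 2.96% of all tested rows called, against 10.5% in the main fit. With library size as the only scaling 5 were called lower, and 425 of all 13873 rows. Leaving out each library in turn gave 1 to 3 called higher, 0 to 8 lower and 1 to 11 in all, the lowest without HFD replicate 3. In these fits 3.08% to 10.9% of all tested rows were called, again the lowest without HFD replicate 3. The remaining scalings, filters, tests and the threshold of 0.10 kept these counts within 1.5 times. The replicate numbers do not pair the libraries (correlations of same-numbered deviations of -0.13, 0.0037 and -0.097). With a replicate block 8 members were called in all, 5 of them lower, with B4GALNT2, MGAT3, MGAT4C, PRKCSH and ST6GAL2 not called. That fit called 5.82% of all tested rows.

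No called member changed direction under any alternative. Uncalled genes near no change did. With library size only, DPAGT1 had a log2 change of 0.017 and MGAT4A of 0.036 (0.00 with upper-quartile factors). With a library left out, the log2 changes ran from -0.35 to 0.086 for CHST8, -0.031 to 0.059 for FUT8, -0.15 to 0.47 for FUT9, -0.0069 to 0.092 for MGAT1, -0.073 to 0.093 for MGAT2, -0.15 to 0.071 for MGAT4A and -0.14 to 0.19 for ST6GAL1. The cause of these shifts was not tested. The smallest called change was that of PRKCSH, 0.804-fold.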

Other observations

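Of 22 tested starters of O-glycans and other Golgi transferases outside the symbol rule, 3 were called higher in HFD and none lower. These shares were 13.6% and 0.0%, against 5.87% and 4.61% of all tested rows. The median log2 change of the 22 was -0.0016, with 11 negative and 11 positive. GALNT14, a GalNAc transferase that starts O-glycans, averaged 5.34 ± 1.51 CPM in HFD and 1.56 ± 0.375 CPM in RD (SD, n = 3 each), with no overlap (edgeR log2 1.77 ± 0.30, adjusted p = 0.0072). GALNT10, of the same family, was at 78.8, 69.3 and 68.8 CPM in HFD and 47.3, 49.0 and 46.4 CPM in RD (log2 0.60 ± 0.08, adjusted p = 0.0032). ST8SIA3, which links sialic acids to each other, was at 134, 145 and 150 CPM in HFD and 114, 123 and 111 CPM in RD (log2 0.30 ± 0.07, adjusted p = 0.027).

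Single libraries stood apart in a few members, described after their values were seen. FUT2, an enzyme of the H antigen, was at 29.4 CPM in RD replicate 3 and at 10.3 and 10.6 CPM in RD replicates 1 and 2, with 13.8 to 15.3 CPM in HFD. Without a call, its log2 change was -0.21 ± 0.35.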
